A study of Mus musculus with 6 samples.

Results

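The genes described here serve protein folding in the endoplasmic reticulum (ER). They are 36 genes for chaperones of the ER lumen and membrane, enzymes of disulfide formation, factors of ER-associated degradation (ERAD), the sensors and transcription factors of the unfolded protein response (UPR), and parts of the machinery by which proteins enter the ER. They were taken as every non-control probe of the arrays whose gene name is on that list, 46 probes in all, out of 35527 gene names on the array. The samples were 3T3 cells, an immortalised line of mouse embryonic fibroblasts, transfected with a GapmeR, a chemically modified antisense DNA whose target RNA is cut by RNase H. GapmeR Ntep, 1 selected oligonucleotide against the long non-coding RNA Ntep, was compared with GapmeR control, each at 50 nM for 48 h. RNA of 3 independent experiments was hybridised to 6 Agilent mouse expression arrays in 1 colour, 1 per GapmeR and experiment. No genotype was altered and no ER stress agent was given, so both groups differ in the GapmeR alone as far as the labels say.

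Proteins that enter the secretory pathway fold in the ER lumen with the help of BiP (gene Hspa5) and other chaperones, and disulfide isomerases form and correct their disulfide bonds. Calnexin and calreticulin bind glycoproteins that carry trimmed sugars and hold them for folding. Proteins that fail to fold are passed back to the cytosol by ERAD and degraded by the proteasome. The sensors ATF6, IRE1 (gene Ern1) and PERK (gene Eif2ak3) respond to unfolded proteins, and through ATF6, the spliced form of XBP1 and ATF4 they are known to raise the transcription of chaperone and ERAD genes. In fibroblasts the collagens are a main cargo of this pathway.

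Between 43.7% and 53.3% of the 55681 probes per array were well above background, none was saturated, and arrays correlated with each other at 0.959 to 0.989. The single probe for Ntep (A630089N07Rik in the files) gave 271, 272 and 361 on the control arrays of experiments 1, 2 and 3, and 472, 91.5 and 226 on the arrays labelled GapmeR Ntep. The signal was thus lower with GapmeR Ntep in experiments 2 and 3, whereas the array labelled GapmeR Ntep of experiment 1 was above its control (log2 difference 0.80, -1.57 and -0.68). Both groups overlapped, and over all arrays the difference was -0.48 (SE 0.58, limma adjusted p = 0.632), so this probe did not show the knockdown over the 3 experiments. Groups are therefore called by their labels, and results for the list and for some genes are also given without experiment 1. Of 12 fibroblast markers, 11 were tested and 10 were lower with GapmeR Ntep, with a summed signal of 565795 to 721628 against 820150 to 893748 on the control arrays. Of 13 macrophage markers, 5 were tested, and their summed signal was 42390 to 75156 against 19849 to 27333, with Cd68 past the limit (log2 difference 1.21, adjusted p = 0.0287). Of the 5, 4 were higher and 1 was lower. Ptprc, the leukocyte common antigen, and the further macrophage markers Emr1, Fcgr1, Mrc1, Cx3cr1 and Tyrobp were not well above background on any array. The part of these shifts in the results for ER genes was not tested, and in RNA of whole cultures fewer cells of a type and less RNA per cell cannot be told apart.

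To show where known UPR elements lie, the letters of 4 motifs were searched on both strands in RefSeq promoter windows (GRCm38.p6, 250 bases before to 50 bases after each start site), which the table held for 30 of the 36 genes. The ER stress element, bound by ATF6 together with NF-Y, is CCAAT and CCACG at a distance of 9 bases. It was present in 10 of these 30 genes, against 0.119% of all 32851 windows. The genes are Calr, Canx, Creld2, Derl3, Dnajc3, Ero1lb, Hspa5, Hsp90b1 (at 2 places), Pdia6 and Syvn1. Its second form, ATTGG and CCACG at a distance of 1 base, was present in Herpud1 and, 7 bases after the start, in Dnajb11, against 0.0365% of windows. The UPR element TGACGTGG was found in 0 of the 30 (0.676% of windows), and the core of the composite element for ATF4 and C/EBP factors, TGATGCAA, in Herpud1 alone (0.895% of windows). The matches in Herpud1 do not overlap. A match of letters is not evidence of binding.

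The following stretches are shown because they hold a match in a gene whose arrays did not overlap between groups (Herpud1, Calr, Canx, Syvn1 and Ero1lb) or in a classical UPR target (Hspa5 and Hsp90b1). Dnajb9, the gene that passed the test, is added. Each is written 5′ to 3′ on the strand of the gene and ends before the start site. Capitals mark both parts of the ER stress element or of its second form and, in Herpud1 alone, also the ATF4 core, which there lies on the opposite strand. In the Dnajb9 stretch none of the 4 motifs occurs.
Herpud1, chr8:94386302-94386402: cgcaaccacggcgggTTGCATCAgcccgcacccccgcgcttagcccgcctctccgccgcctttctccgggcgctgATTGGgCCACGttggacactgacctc
Hspa5, chr2:34772010-34772058: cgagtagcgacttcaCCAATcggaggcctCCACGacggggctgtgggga
Hsp90b1, chr10:86705518-86705671: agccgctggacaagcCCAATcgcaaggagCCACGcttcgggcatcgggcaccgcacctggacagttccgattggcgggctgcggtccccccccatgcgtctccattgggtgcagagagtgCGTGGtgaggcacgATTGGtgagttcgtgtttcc
Calr, chr8:84847060-84847108: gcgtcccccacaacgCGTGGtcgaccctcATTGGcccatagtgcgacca
Canx, chr11:50325785-50325833: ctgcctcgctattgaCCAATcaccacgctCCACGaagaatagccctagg
Syvn1, chr19:6046517-6046565: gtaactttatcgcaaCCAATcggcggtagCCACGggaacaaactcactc
Ero1lb, chr13:12565667-12565715: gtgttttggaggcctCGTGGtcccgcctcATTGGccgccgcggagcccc
Dnajb9, chr12:44210069-44210168: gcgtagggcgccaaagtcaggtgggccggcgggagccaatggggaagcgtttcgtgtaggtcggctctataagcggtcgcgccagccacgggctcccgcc

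Across the list, ER folding genes differed in both directions. Of 35 genes tested, 19 were higher and 16 lower with GapmeR Ntep, beside 11994 higher and 10100 lower of all 22094 gene names tested. On the log2 scale 27 of the 35 differed by less than 0.5, a share that was not counted over all genes. Without 1 flagged spot of Pdia4 (below), 18 were higher and 17 lower. Their median log2 difference was 0.05, or 0.006 without that spot, beside 0.06 over all 22094 gene names tested, and it was 0.03, 0.12 and 0.16 in experiments 1, 2 and 3. Scaling to the 75th percentile in place of quantile normalisation moved both medians to 0.22. In the unpaired fit Dnajb9 alone passed the limit of an adjusted p of 0.05 (limma, Benjamini-Hochberg over all tested probes), so 1 gene rose, against 1.99% of all genes, and none of the 35 fell, against 3.17%. At the unadjusted p of 0.05, 5 were higher (12.3% of all genes) and 3 lower (12.6%). At a fold change of 2 and an unadjusted p of 0.01, the limits of the study, Dnajb9 was again the single gene, where 2.89% of all genes were higher and 4.99% lower. The arrays of both groups did not overlap for 7 genes that were higher (17.1% of all genes) and 4 that were lower (15.4%). Moreover, 13 genes were higher in each of the 3 experiments (32.3% of all genes) and 7 were lower in each (26.9%). These shares are near those of all genes. With experiments as blocks, Ero1lb and Herpud1 passed the adjusted limit besides Dnajb9. This was 8.57% of the 35 genes, beside 13.9% of all genes. Derl3, another derlin, was not tested, since its signal lay between 20 and 30.8 and was well above background on 0 arrays, while the other 35 were well above background on all 6.

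**Figure D1:**
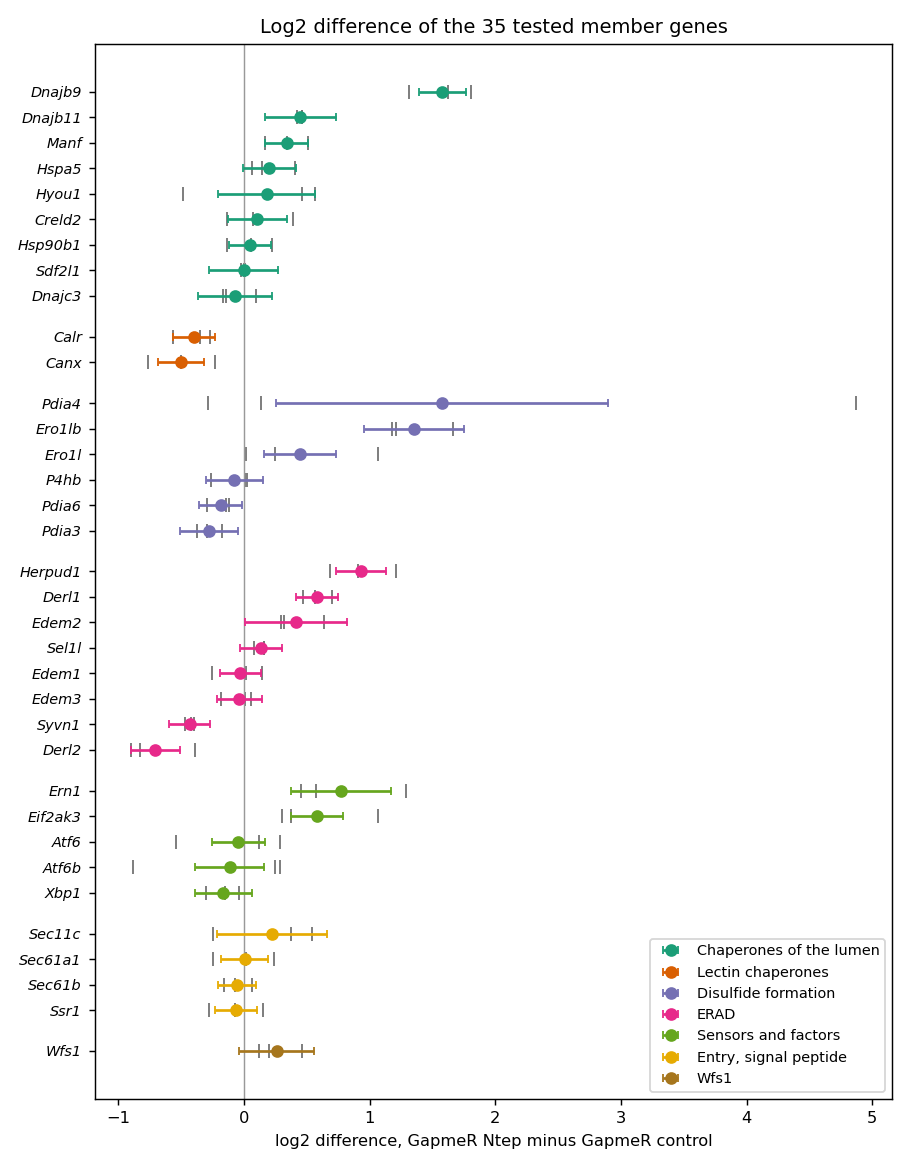
Log2 difference (GapmeR Ntep minus GapmeR control, x axis) of the 35 tested genes, grouped and coloured by role. Points and bars give the estimate and its standard error from limma (n = 3 arrays per group), and grey ticks give the difference in each of the 3 experiments. Dnajb9 lies at 1.58 with a short bar, Pdia4 at 1.57 with a wide bar and a single tick at 4.87, and Ero1lb at 1.35, while 27 genes lie within 0.5 of 0.

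Among the 9 chaperones and co-chaperones of the lumen, 7 were higher and 2 lower, with a median log2 difference of 0.18. Dnajb9 encodes a J-domain co-chaperone of BiP that is known as a target of the IRE1 and XBP1 branch and helps to hold IRE1 inactive. Its brighter probe (chr12:45307313-45307372 in mm9, the build of the array files) gave 1388, 1450 and 1550 on the control arrays of experiments 1, 2 and 3, and 4850, 3605 and 4771 on the arrays labelled GapmeR Ntep. Every array labelled GapmeR Ntep was thus above every control array, with the smallest gap in experiment 2. The mean rose from 1462 ± 82.0 to 4409 ± 697 (mean ± SD, n = 3), a log2 difference of 1.58 (SE 0.19, limma adjusted p = 0.0243), or 2.99-fold. The second probe of the gene rose as well, from 733, 450 and 484 to 3472, 1799 and 3168 (log2 difference 2.32, SE 0.33, adjusted p = 0.0287). The call on the brighter probe held without GapmeR Ntep replicates 1 (0.0489) or 2 (0.0388), but not without GapmeR control replicates 1 (0.06), 2 (0.13) or 3 (0.113), GapmeR Ntep replicate 3 (0.107) or the whole of experiment 1 (log2 difference 1.47, adjusted p = 0.06).

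The other chaperones of the lumen did not pass the limit. For BiP itself, Hspa5 gave 161391, 128836 and 113143 on the control arrays and 178151, 134701 and 149840 with GapmeR Ntep. Both groups overlapped and the log2 difference was 0.20 (SE 0.21, adjusted p = 0.575). Hsp90b1, the ER member of the HSP90 family, gave 88016, 86194 and 75142 against 91354, 78447 and 87959, which is a log2 difference of 0.05 (SE 0.16, adjusted p = 0.878). Manf, a secreted factor that binds BiP, did not overlap between groups (55461 to 61435 on control arrays, 63353 to 79186 with GapmeR Ntep; log2 difference 0.34, adjusted p = 0.276). Dnajb11, a J-domain protein that hands substrates to BiP, was higher by similar amounts in the experiments (0.42, 0.47 and 0.46), but its level differed as much between experiments (log2 difference 0.45, adjusted p = 0.377, or 0.0936 with experiments as blocks). Hyou1, a nucleotide exchange factor of BiP, was dim (250 to 329 on control arrays, 179 to 486 with GapmeR Ntep) and differed by -0.48, 0.56 and 0.46 in the experiments, so experiment 1 went the other way (log2 difference 0.18, adjusted p = 0.798). Sdf2l1, a cofactor of BiP, gave 4920, 7097 and 7671 on the control arrays and 4855, 7124 and 7714 with GapmeR Ntep. Its signal thus varied between experiments but hardly within them (log2 difference -0.002, adjusted p = 0.997). Creld2, a secreted ER stress protein, ranged from 28693 to 44700 against 31676 to 40648 (log2 difference 0.11), and Dnajc3, a J-domain protein and inhibitor of PERK, from 1202 to 2059 against 1180 to 1867 (log2 difference -0.07).

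**Figure D2:**
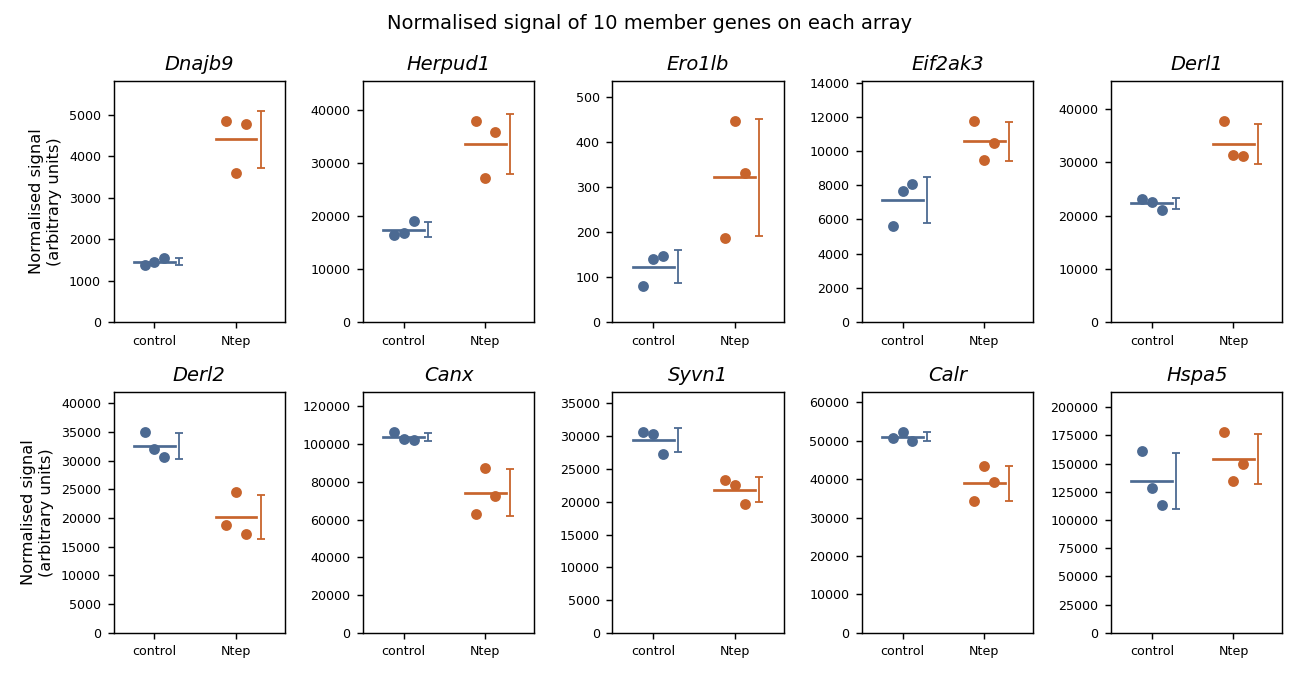
Normalised signal (arbitrary units, y axes start at 0 and differ between panels) of 10 genes on each array. Points are single arrays in the order of experiments 1 to 3, horizontal lines are means and bars are the SD (n = 3 per group). Groups are separate for every gene shown except Hspa5, and experiment 2 has the smallest gap between groups for every gene except Ero1lb and Syvn1.

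Both lectin chaperones were lower with GapmeR Ntep. Canx encodes calnexin, the membrane-bound one, and its signal was 106432, 102887 and 102314 on the control arrays and 62789, 87571 and 72310 with GapmeR Ntep. The groups did not overlap, but the log2 difference of -0.50 (SE 0.18) missed the limit (adjusted p = 0.165). Calr encodes calreticulin, the soluble one, which gave 50701, 52273 and 49976 against 34223, 43358 and 39177, again without overlap (log2 difference -0.40, SE 0.17, adjusted p = 0.209). For both genes the control arrays lay close together, and the arrays labelled GapmeR Ntep were spread over a wider range. The differences in experiments 1, 2 and 3 were -0.76, -0.23 and -0.50 for Canx and -0.57, -0.27 and -0.35 for Calr, with the same order of experiments. Pdia3, the disulfide isomerase that works on glycoproteins bound to both lectins, gave 24716, 33932 and 31292 against 20220, 30131 and 24221. It was lower in each experiment, yet the groups overlapped (log2 difference -0.28, SE 0.23, adjusted p = 0.484).

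Among the 6 genes of disulfide formation, 3 were higher and 3 lower, or 2 higher and 4 lower without the flagged spot of Pdia4. Ero1lb, an oxidase that renews the disulfide isomerases, was dim, with 80.7, 141 and 146 on the control arrays and 187, 446 and 332 with GapmeR Ntep. All 3 arrays labelled GapmeR Ntep were above the control arrays, and the differences of 1.21, 1.66 and 1.18 in the experiments were alike. The log2 difference of 1.35 (SE 0.40) had an adjusted p of 0.106 in limma, and of 0.0334 with experiments as blocks. With another background correction (normexp) it was 0.82, and without experiment 1 it was 1.42 (adjusted p = 0.0605). Its paralogue Ero1l gave 1841, 1777 and 1760 against 1867, 2113 and 3686, so that the groups barely separated and experiment 3 set the log2 difference of 0.45 (SE 0.28, adjusted p = 0.382).

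The large estimate for Pdia4, a disulfide isomerase and UPR target, rested on 1 array. Its signal was 12012, 12388 and 13561 on the control arrays and 351472, 13627 and 11141 with GapmeR Ntep. The scanner software had marked the spot of experiment 1 with GapmeR Ntep as non-uniform, and the other 2 arrays labelled GapmeR Ntep lay around the control arrays. With that spot the log2 difference was 1.57 (SE 1.32, adjusted p = 0.487), and without it -0.04 (SE 0.20, adjusted p = 0.928, 3 against 2 arrays). Of the other isomerases, Pdia6 differed by -0.18 (adjusted p = 0.531) and P4hb, which is also a subunit of the collagen prolyl hydroxylase, by -0.07 (adjusted p = 0.859). The dimmer probe of Pdia6 differed by -0.37 without overlap.

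**Figure D3:**
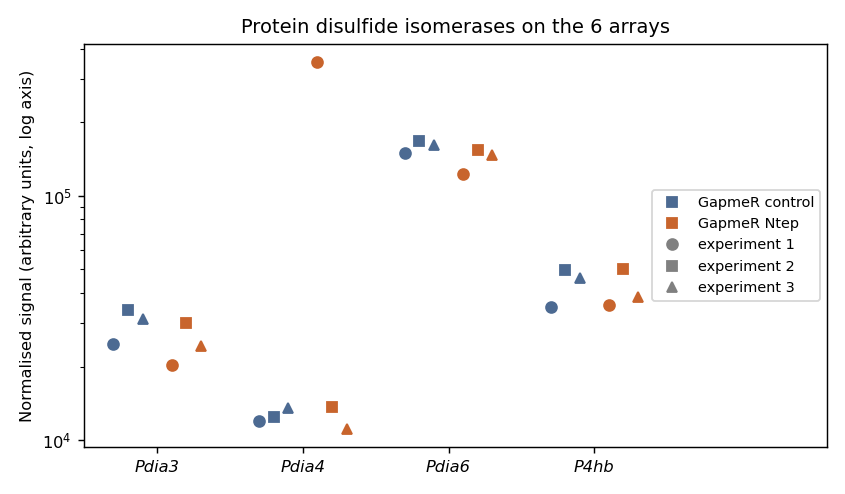
Normalised signal (arbitrary units, log axis) of 4 disulfide isomerase genes on the 6 arrays, by group (colour) and experiment (symbol). The Pdia4 spot of experiment 1 with GapmeR Ntep lies at 351472, while its other 5 arrays lie between 11141 and 13627 and the other 3 genes have no such point.

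ERAD genes differed in opposite directions, with 4 of 8 tested genes higher, 4 lower and a median of 0.05. Herpud1 encodes an ER membrane protein that gathers the ERAD ligase complex and is a strong UPR target. Its probe (chr8:96919117-96919176 in mm9) gave 16361, 16894 and 19105 on the control arrays and 37886, 27123 and 35814 with GapmeR Ntep. The groups were well apart in each experiment, with log2 differences of 1.21, 0.68 and 0.91. Over all arrays it was 0.93 (SE 0.20), or 1.91-fold, and the adjusted p of 0.0526 lay just above the limit. It was 0.0446 with experiments as blocks, 0.0305 when dim probes were left out, and 0.107 without experiment 1. Derl1, a derlin of the channel through which ERAD substrates leave the ER, gave 23169, 22584 and 21035 against 37696, 31304 and 31185. This was a log2 difference of 0.58 (SE 0.17, adjusted p = 0.0974), while its other, dimmer probe differed by 0.22, also without overlap.

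Derl2, a second derlin, was lower instead. Its brightest probe gave 34994, 31947 and 30665 on the control arrays and 18775, 24441 and 17278 with GapmeR Ntep, without overlap. The log2 difference was -0.70 (SE 0.19, adjusted p = 0.0911), the lowest of the 35 genes, and the other probes differed by -0.49, without overlap, and by -0.37, with overlap. Syvn1 encodes the ubiquitin ligase of the same complex as Herpud1 and gave 30656, 30330 and 27288 against 23278, 22619 and 19686. Its difference was alike in the experiments (-0.40, -0.42 and -0.47), with a log2 difference of -0.43 over all arrays (SE 0.16, adjusted p = 0.173). Sel1l, the partner of that ligase, ranged from 1155 to 1364 on control arrays and from 1294 to 1446 with GapmeR Ntep (log2 difference 0.14, adjusted p = 0.632). The lectin-like mannosidase genes Edem1, Edem2 and Edem3 differed by -0.03, 0.42 and -0.04, each with overlap between groups. On the brightest probe, Herpud1 and Derl1 thus lay above, and Syvn1 and Derl2 below, the control arrays in every experiment, although none of them passed the adjusted limit. The overlapping probe of Derl2 was higher with GapmeR Ntep in experiment 2 (8127, against 7540 on the control array).

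Among the 5 sensors and transcription factors, both kinases had higher means with GapmeR Ntep and the transcription factors were close to 0. Ern1, which encodes the kinase and nuclease IRE1, gave 363, 199 and 158 on the control arrays and 541, 273 and 387 with GapmeR Ntep. It was higher in each experiment, but the control array of experiment 1 lay within the range of the other group (log2 difference 0.77, SE 0.40, adjusted p = 0.288). Its dimmer probe differed by 0.72 without overlap. Eif2ak3, which encodes the kinase PERK, gave 5597, 7681 and 8079 against 11741, 9490 and 10462, without overlap (log2 difference 0.58, SE 0.21, adjusted p = 0.158). Xbp1 gave 33289, 44791 and 39103 against 26959, 40483 and 38171, with overlap and a log2 difference of -0.16 (SE 0.23, adjusted p = 0.688). Splicing of Xbp1 mRNA was not analysed here. Atf6 gave 1332, 1077 and 1081 against 914, 1317 and 1175, lower in experiment 1 and higher in the others, with a log2 difference of -0.04 (SE 0.21, adjusted p = 0.913). Atf6b, its paralogue, followed the same course, with differences of -0.88, 0.25 and 0.29 and a log2 difference of -0.11 over all arrays (adjusted p = 0.824).

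Genes of entry into the ER were close to 0. The translocon subunits Sec61a1 and Sec61b differed by 0.006 and -0.05, the signal peptidase subunit Sec11c by 0.22 and the translocon-associated Ssr1 by -0.06, all with overlap between groups on the brightest probe. The dimmer probe of Sec61b differed by 0.30 in the other direction, without overlap, and that of Ssr1 with the lower signal on all GapmeR Ntep arrays by -0.24. Wfs1, an ER membrane protein that is mutated in Wolfram syndrome, ranged from 1171 to 2085 on control arrays and from 1616 to 2398 with GapmeR Ntep (log2 difference 0.26, adjusted p = 0.61).

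Genes with the ER stress element in their promoter window did not stand out. The 9 tested genes that hold it had a median log2 difference of -0.07, with 4 higher and 5 lower, and the 20 tested genes whose window lacks it had a median of 0.07, with 10 in each direction (-0.02, with 9 higher and 11 lower, without the flagged spot of Pdia4). Ero1lb at 1.35 was the highest and Canx at -0.50 the lowest of the first group. Canx, Calr and Syvn1, all lower without overlap between groups, carry the same element as Hspa5 (sequences above). Dnajb9 and Pdia4 belong to the second group, as does Herpud1, which holds the second form and the ATF4 core.

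**Figure D4:**
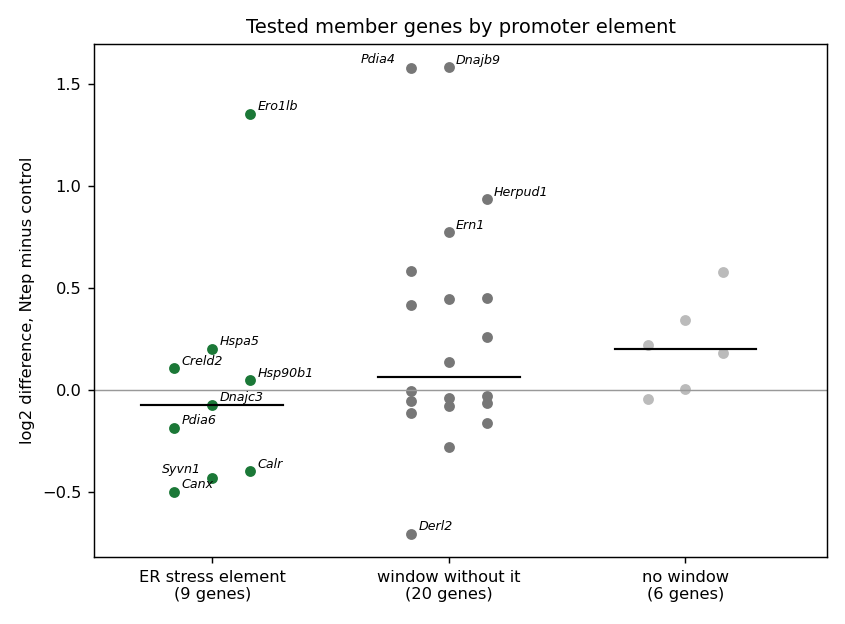
Log2 difference (GapmeR Ntep minus GapmeR control, y axis) of the tested genes with the ER stress element in their promoter window (9 genes), with a window without it (20 genes) and without a window in the table (6 genes). Each point is 1 gene and horizontal lines are medians, at -0.07 and 0.07 for the first and second group.

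The wider ER machinery showed a like picture. Of 84 other ER genes in 4 lists (folding factors, ERAD and glycan trimming, translocon with signal peptidase and oligosaccharyltransferase, UPR regulators), 79 were tested, 36 were higher and 43 lower, and the median was -0.09. In that set 1 gene rose past the adjusted limit (1.99% of all genes) and 1 fell (3.17%), together 2.53% of the 79 beside 5.16% of all genes. Ube2g2, a ubiquitin-conjugating enzyme of ERAD, rose from 13947, 8791 and 9120 on the control arrays to 33356, 23639 and 29848 (log2 difference 1.46, SE 0.26, adjusted p = 0.0364). Creb3l1, an ER-bound transcription factor that promotes collagen synthesis, fell from 6414, 6370 and 5976 to 746, 2508 and 1483 (log2 difference -2.15, SE 0.44, adjusted p = 0.0489). A dimmer probe of Ube2g2 rose as well (1.54, adjusted p = 0.0482). Neither gene passed with no filter on dim probes (adjusted p = 0.0871 for Ube2g2 and 0.14 for Creb3l1), with moderation over all probes (0.0507 and 0.0816) or without experiment 1 (0.0536 and 0.0731). At the limits of the study, 2 of the 79 were higher (2.89% of all genes) and 2 lower (4.99%). Besides Ube2g2 and Creb3l1 these were Ppp1r15b (log2 difference 1.77) and Cnpy2 (log2 difference -1.08). By list, the medians were -0.12 for 25 other folding factors, 0.22 for 23 ERAD and glycan trimming genes, -0.06 for 22 genes of the translocon list and -0.09 for 9 UPR regulators. Mbtps1 and Mbtps2, the proteases that release ATF6 in the Golgi, differed by -0.18 and -0.29, and their dimmer probes by -0.54 and -0.45, each with overlap.

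In contrast, all 12 genes of the list for the branch from PERK to ATF4 were higher, beside 11994 of 22094 over all genes. Each was higher in all 3 experiments (32.3% of all genes). The median was 0.80, although 0 of them passed the adjusted limit on the brightest probe. This list was chosen with earlier results of these data known, and PERK activity was not measured. An unadjusted p under 0.05 was reached by 6 of the 12 (12.3% of all genes), and 8 did not overlap between groups (17.1% of all genes). The brighter probe of Atf4 gave 235331, 194847 and 205824 against 278510, 266436 and 271314, a log2 difference of 0.36 that missed the limit (adjusted p = 0.224) but passed with an intensity trend (0.0436) or array weights (0.0314). Its dimmer probe rose, from 5426, 3636 and 4384 to 13644, 10185 and 12637 (log2 difference 1.45, SE 0.22, adjusted p = 0.0312), so both probes of Atf4 differed in the same direction but by unequal amounts. With the mean of both probes the log2 difference was 0.91 (adjusted p = 0.049). Ddit3, which encodes CHOP, gave 4350, 1867 and 2009 against 7675, 3421 and 3202 (log2 difference 0.79, adjusted p = 0.358, or 0.0428 with experiments as blocks). The difference between this list and the ER folding genes was not tested.

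**Figure D5:**
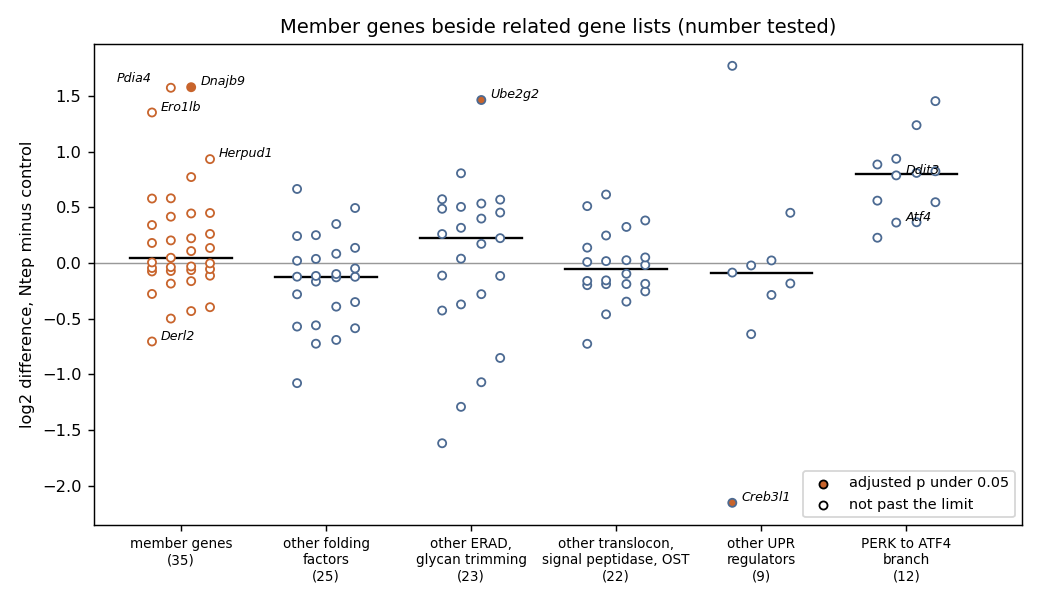
Log2 difference (GapmeR Ntep minus GapmeR control, y axis) of the 35 tested genes beside 4 lists of other ER genes and the branch from PERK to ATF4, with the number tested under each name. Each circle is 1 gene, filled circles have an adjusted p under 0.05 (limma) and lines are medians; 3 circles are filled, Dnajb9, Ube2g2 and Creb3l1, and all 12 genes of the last list lie above 0.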

How the data were processed

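Per the file headers, the authors scanned 6 arrays in 1 colour and extracted the spots with Agilent Feature Extraction 10.7.3.1. The deposited intensities are background subtracted on a linear scale and not normalised between arrays, with flags for background, saturation and non-uniform spots. The authors also deposited a table of quantile-normalised signal intensities with a floor of 20, which was used as an alternative. Spots of a probe were averaged, arrays were quantile normalised, a floor of 20 was applied, and the log2 scale was used to compare 30990 probes, those whose mean reached 50 in either group, with limma 3.58.1 (R 4.3.3), unpaired and two-sided, with Benjamini-Hochberg adjustment. The limma steps were tested on simulated data. Normalisation sets equal signal distributions on all arrays, so a shift common to all genes cannot be seen. A gene name stands by its brightest tested probe, and other probes are given where they differ in sign, call or overlap. With 3 arrays per group, their number limits the precision, and an exact permutation test cannot fall below 0.1.

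Experiment numbers come from the documentation of the study. Residuals of arrays of the same experiment had correlations of 0.466, 0.3 and 0.254 (other pairs between -0.327 and 0.126). The numbers therefore pair the arrays, and a fit with experiments as blocks was run beside the unpaired one of the methods. The genes and lists were chosen with earlier results of these data known. Signals on all arrays were given for genes past the adjusted limit, the 5 highest and 5 lowest, and Hspa5, Hsp90b1, Herpud1, Dnajb9, Xbp1, Atf6, Ern1 and Eif2ak3. Of other lists, genes past the adjusted limit and Atf4, Ddit3, Mbtps1 and Mbtps2 were named, and of the other ER genes also those past the limits of the study. Tables and motif searches were made with Python 3.11.15, pandas 2.3.3 and numpy 2.4.6, and figures with matplotlib 3.10.9. Promoter windows are RefSeq sequences of GRCm38.p6, and probe positions are those of mm9 in the files. Endothelial (3 of 8 tested, 2 higher and 1 lower) and epithelial markers (8 of 8 tested, 6 higher and 2 lower) were also listed. Of the epithelial markers, 5 were well above background on all arrays. Ocln alone passed (log2 difference 1.87, limma adjusted p = 0.0223).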

Additional observations from a re-analysis of the deposited data

How the results depend on the processing

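Among the member genes, Dnajb9 kept its direction under all alternatives (log2 difference 1.47 to 1.95, adjusted p 0.0028 to 0.13). The number of member genes past the adjusted limit was 2 higher with normexp, 2 higher with probes well above background on 6 arrays, 3 higher with the replicate block, 3 higher and 1 lower with an intensity trend, and 7 higher and 4 lower with array weights. These were 5.71%, 5.71%, 8.57%, 11.4% and 31.4% of the members, beside 8.47%, 10.8%, 13.9%, 8.99% and 33.6% of all genes under the same settings. Other ER genes past the limit were 2 higher and 3 lower with normexp, 2 and 2 with probes well above background, 3 and 5 with the replicate block, 3 and 4 with the trend, and 13 and 12 with array weights. This was 6.33%, 5.13%, 10.1%, 8.86% and 31.6% of those tested, each below the share of all genes under the same setting. Other ER genes past the limit were 0 and 0 with 75th percentile scaling (3.6% of all genes) and with the methods' t-test (0.923%). They were 0 lower with a floor of 5 and with the mean of all probes of a gene. The branch from PERK to ATF4 had 2, 2, 3, 3 and 8 genes past the limit under the first 5 of these settings, in that order, which is 16.7%, 16.7%, 25%, 25% and 66.7% of its genes, and 1 with the mean of all probes (Atf4). The median of all genes became 0.217 with 75th percentile scaling, that of the members 0.216 and that of other ER genes 0.077. It was 0.127 for the members with array weights, and -0.027 for other ER genes with the mean of all probes.

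Chosen after seeing the data were moderation over all probes, dim ones included, and the omission of both arrays of experiment 1. The first gave 2 member genes higher (5.71% of those tested). It gave 3 higher and 2 lower among other ER genes (6.33%, neither Ube2g2 nor Creb3l1). Of all genes, 5.46% passed under this setting, 2.74% higher and 2.72% lower. Leaving out arrays, singly or as the pair of experiment 1, gave 0 to 2 member genes higher (0% to 1.38% of all genes) and a member median of 0.03 to 0.147. It gave 0 to 1 other ER genes higher and 0 to 1 lower (0% to 2.78% of all genes lower), and a median of 0.578 to 0.996 for the branch from PERK to ATF4. Without experiment 1 the log2 difference was -0.367 for Canx, -0.31 for Calr, -0.607 for Derl2 and 0.339 for Eif2ak3, each smaller in size than over all arrays. For Syvn1 it was -0.447. Without GapmeR control replicate 2, without GapmeR Ntep replicate 3, or without experiment 1, 0 of 22094 genes passed in limma (unadjusted p under 0.05 in 3583, 4388 and 6808). Over these omissions Xbp1 ranged from -0.274 to 0.02 (0.008 on scaling to the 75th percentile), Atf6 from -0.159 to 0.206 (0.099 with array weights), Hsp90b1 from -0.023 to 0.112, Pdia4 from -0.073 to 2.453 (-0.036 with outlier spots left out) and Mbtps2 from -0.507 to 0.06, so that each turned its direction at least once. The cause was not tested, except that the Pdia4 value depends on 1 spot. Of the genes named with values on all arrays, the replicate block changed the calls of Herpud1, Ero1lb and Ddit3.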

Other observations

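Spots marked as non-uniform by the scanner software numbered 8, 14 and 34 on the GapmeR control arrays of experiments 1, 2 and 3 and 38, 15 and 39 on the arrays labelled GapmeR Ntep, counted over all non-control probes. Of these, 4, 9 and 25, and 30, 11 and 29, were more than 8-fold above the median of the other arrays. The Pdia4 spot described above is one of the 30.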
